A study of Mus musculus with 4 samples.

Results

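The 9 genes studied here encode C-type lectin receptors of myeloid cells, and their expression was examined in cultured mouse macrophages. They were Clec4a1, Clec4a2, Clec4a3, Clec4d, Clec4e, Clec4n, Clec5a, Clec7a and Clec12a. The genes were taken by symbol, and all 9 were found among the 34745 genes counted by RNA sequencing. All 9 passed the filter on low counts that left 12418 genes for testing. The cells were primary macrophages, derived from bone marrow per the study's text, in 4 libraries of total RNA. WT denotes the floxed controls (G3bp1 f/f), and KO denotes G3bp1mac-/-, in which the floxed G3bp1 gene was combined with Lyz2-Cre. Lyz2 drives Cre in monocytes and granulocytes as well as in macrophages. Both genotypes had 2 libraries, numbered 1 and 2, grown in DMEM with fetal bovine serum, with no treatment, age or batch given for them in the labels. Nothing in the labels says that the libraries of a genotype came from separate animals or cultures, so p-values measure the spread between these libraries, which may be technical. Genotype was the only term of the main test, so that spread includes the differences between replicate numbers described below.

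Libraries held between 16724241 and 19747909 counts. G3bp1, the targeted gene and the scaffold of stress granules, had 1691 and 2875 counts in WT replicates 1 and 2, and 1307 and 2296 counts in KO replicates 1 and 2. The KO level was 65.6% of the WT level, and the genotypes overlapped, with log2 ratios of KO to WT of -0.57 within number 1 and -0.63 within number 2. The log2 fold change was -0.61 (SE 0.40, edgeR quasi-likelihood adjusted p = 0.904), and -0.19 without WT replicate 2, -0.28 without KO replicate 1, -0.95 without WT replicate 1 and -1.03 without KO replicate 2. Counts over a whole gene do not show the loss of single exons, so G3bp1 does not check the labels, and each direction below is that of the libraries labelled KO. All 12 macrophage marker genes that were listed (Adgre1, Csf1r, Cd68, Lyz2 and others) were detected, with a summed level of 27748 and 25771 CPM in WT and 21896 and 25480 CPM in KO. The sum is over 13 entries, since the symbol Itgam has another entry. CPM are counts scaled to a common library total after TMM correction of that total.

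C-type lectin receptors are pattern recognition receptors on the surface of myeloid cells. Dectin-1 (Clec7a) binds beta-glucan of fungal cell walls and signals through an activating motif in its own tail. Dectin-2 (Clec4n), Mincle (Clec4e) and MCL (Clec4d) bind fungal or mycobacterial glycans and glycolipids and rely on the adaptor FcR gamma chain (Fcer1g), whereas MDL-1 (Clec5a) relies on DAP12 (Tyrobp) and DAP10 (Hcst). These receptors recruit the kinase SYK, which activates NF-kB through CARD9, BCL10 and MALT1. DCIR1 (Clec4a2) and MICL (Clec12a) carry an inhibitory motif that recruits phosphatases such as SHP-1 (Ptpn6). Clec4a1 and Clec4a3 encode relatives of DCIR1.

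All 9 genes lie on chromosome 6, in coordinates of the GRCm38 mouse genome. Clec5a stands alone (chr6:40574894-40585821, minus strand). A cluster of 6 genes follows, with Clec4a1 (chr6:122921848-122934619), Clec4a3 (chr6:122952515-122969875), Clec4a2 (chr6:123106428-123143999), Clec4n (chr6:123229843-123247021) and Clec4d (chr6:123262111-123275265) on the plus strand and Clec4e (chr6:123281789-123289870) on the minus strand. Clec4d and Clec4e point towards each other with 6.52 kb between them. Clec12a (chr6:129342691-129365303, plus strand) and Clec7a (chr6:129461591-129472779, minus strand) are 96.3 kb apart. No other gene of the file overlapped any of the 9 spans. How reads that match several of the related Clec4a genes were counted is not given in the sources used here, so the split between Clec4a1, Clec4a2 and Clec4a3 is uncertain.

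Promoter sequences are shown for 5 genes on which the results turn. Clec4e and Clec5a differed most between the replicate numbers, Clec4a2 had the smallest p between the genotypes, and Clec7a and Clec4d had the highest levels. Each is the RefSeq window (GRCm38.p6) from 250 bases before to 50 bases after the start of the gene, 5′ to 3′ on the strand of the gene. The windows are chr6:123289822-123290121 (minus strand), chr6:40585756-40586055 (minus strand), chr6:123122440-123122739 (plus strand), chr6:129472730-129473029 (minus strand) and chr6:123261857-123262156 (plus strand), in the order of the lines below. The RefSeq start of Clec4a2 lies inside the span that the file gives. Capitals mark matches, on either strand, to GAGGAA (the core bound by PU.1) and to TTGCNNAA (bound by C/EBP factors). They also mark TGANTCA, a loose pattern that includes the sites bound by AP-1, and the core promoter element TATAAA.
Clec4e: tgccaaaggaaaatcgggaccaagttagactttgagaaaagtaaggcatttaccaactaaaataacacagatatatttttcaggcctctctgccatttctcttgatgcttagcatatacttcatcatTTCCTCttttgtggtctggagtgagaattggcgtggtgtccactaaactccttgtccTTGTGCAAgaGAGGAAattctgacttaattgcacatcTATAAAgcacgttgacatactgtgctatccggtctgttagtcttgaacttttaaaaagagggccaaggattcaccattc
Clec5a: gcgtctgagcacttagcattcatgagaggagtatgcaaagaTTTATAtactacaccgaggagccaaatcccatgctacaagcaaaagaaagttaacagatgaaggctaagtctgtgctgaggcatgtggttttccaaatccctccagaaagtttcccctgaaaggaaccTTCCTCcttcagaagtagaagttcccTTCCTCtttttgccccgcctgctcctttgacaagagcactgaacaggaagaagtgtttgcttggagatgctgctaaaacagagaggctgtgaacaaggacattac
Clec4a2: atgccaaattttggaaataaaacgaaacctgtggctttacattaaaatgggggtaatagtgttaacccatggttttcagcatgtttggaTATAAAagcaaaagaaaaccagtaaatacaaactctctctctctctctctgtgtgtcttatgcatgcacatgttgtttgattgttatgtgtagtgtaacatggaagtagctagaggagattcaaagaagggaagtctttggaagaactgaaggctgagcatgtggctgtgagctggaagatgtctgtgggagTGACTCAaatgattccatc
Clec7a: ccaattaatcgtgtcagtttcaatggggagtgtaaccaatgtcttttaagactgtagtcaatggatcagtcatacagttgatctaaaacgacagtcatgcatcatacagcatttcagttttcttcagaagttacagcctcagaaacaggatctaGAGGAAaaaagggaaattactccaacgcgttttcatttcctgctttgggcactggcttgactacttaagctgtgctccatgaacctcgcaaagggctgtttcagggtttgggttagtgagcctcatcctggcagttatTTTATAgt
Clec4d: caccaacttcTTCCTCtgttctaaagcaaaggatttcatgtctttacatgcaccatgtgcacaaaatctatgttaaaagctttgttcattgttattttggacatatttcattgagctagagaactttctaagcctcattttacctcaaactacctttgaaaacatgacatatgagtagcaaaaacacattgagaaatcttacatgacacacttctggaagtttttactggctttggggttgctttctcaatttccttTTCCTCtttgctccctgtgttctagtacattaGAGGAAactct

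Windows were present for 8 of the 9 genes, the exception being Clec4n, and were set beside all 32851 windows of the same length. GAGGAA was found in 6 of the 8 windows and in 28.3% of all windows. TATAAA was found in 4 of the 8 and in 13.6% of all, TTGCNNAA in 2 of the 8 and in 10.8% of all, and TGANTCA in 2 of the 8 and in 7.81% of all. The matches to TGANTCA read tgactca in Clec4a2 and tgaatca in Clec12a, and not every form of this pattern is an AP-1 site. The NF-kB consensus was found in 0 of the 8 windows and in 8.46% of all, which says only that these letters are not in these windows. In the Clec4e window, TATAAA began at position -29 relative to the start, GAGGAA at -56 and the match to TTGCNNAA at -66. In the other windows, TATAAA began at -161 in Clec4a2, at -209 in Clec5a and at 43 in Clec7a, so that only Clec4e among these 8 had it within the 50 bases before its start. Motifs and windows were chosen with the expression values known, and a match is a description of the sequence.

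The level of each receptor gene was then compared over the 4 libraries, per kilobase of annotated exon so that genes could be set side by side. Clec4d had the highest mean level (427 CPM per kb), followed by Clec7a (360 CPM per kb). Next in order were Clec4e with 89.2, Clec12a with 63.9, Clec4a3 with 35.5, Clec5a with 22.9, Clec4a1 with 15.3, Clec4a2 with 11.6 and Clec4n with 5.41 CPM per kb. Neighbours in this order had overlapping libraries, in WT and in KO alike, except Clec7a above Clec4e, Clec12a above Clec4a3, and Clec4a2 above Clec4n. The order differed between the replicate numbers. In number 1 Clec7a was above Clec4d (490 against 379 CPM per kb in WT and 298 against 228 in KO) and Clec4e was the lowest of the 9, whereas in number 2 Clec4d was above Clec7a (581 against 407 CPM per kb in WT and 521 against 244 in KO) and Clec4e was the third. By its mean, the deposited FPKM gave the same order as the mean CPM per kb apart from a swap of Clec4e with Clec12a and of Clec5a with Clec4a1. The gene length behind the deposited FPKM of Clec4e was 13196 bases, which is longer than the 8082 bases the gene spans and 2.66 times its annotated exons, so the deposited FPKM understates Clec4e relative to its exons. Clec4e ranged from 2.12 to 181 CPM per kb, with an SD of 3.57 on the log2 CPM scale over the 4 libraries against 0.36 (Clec4a3) to 1.29 (Clec5a) for the others.

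**Figure D1:**
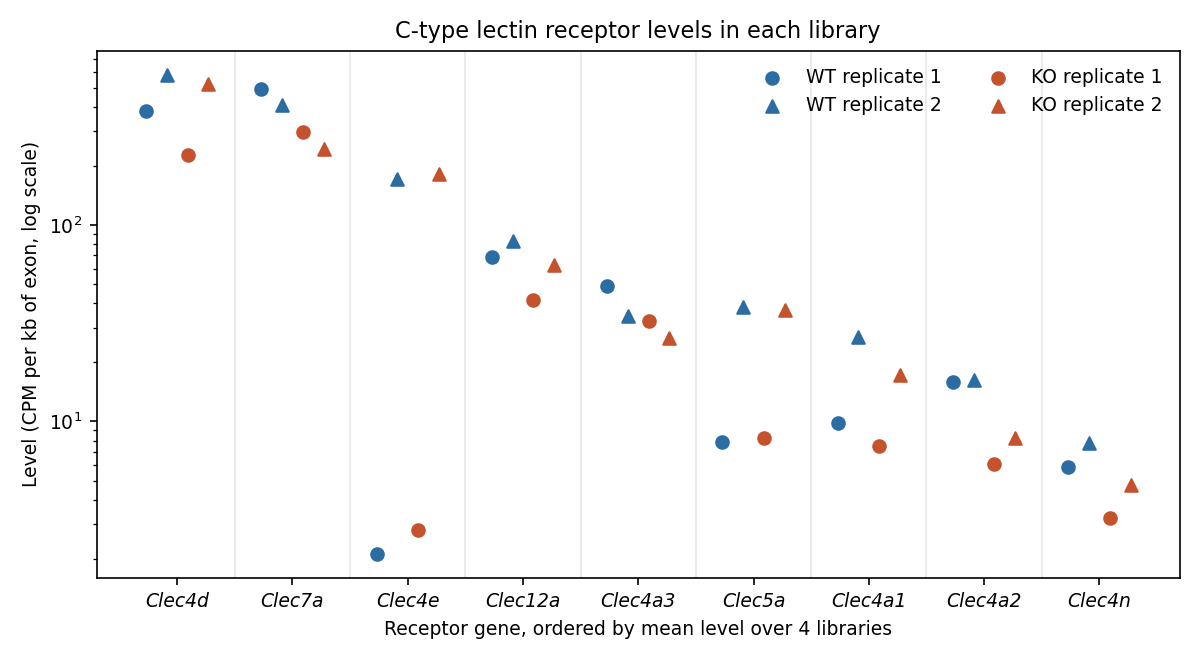
Level of each receptor gene in each library (vertical axis, CPM per kb of exon, log scale), with genes ordered by their mean over the 4 libraries. Circles are replicate 1, triangles are replicate 2, blue is WT and orange is KO. Clec4e separates by replicate number (2.12 and 2.79 against 171 and 181 CPM per kb), as do Clec4a1, Clec4d and Clec5a by smaller differences. The libraries of Clec4a2, Clec4a3, Clec4n, Clec7a and Clec12a separate by genotype.

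The main comparison asked which receptor genes differed between KO and WT macrophages. With the limits of an adjusted p under 0.05 and more than a 2-fold difference, 0 of the 9 genes were called by edgeR's quasi-likelihood test, as were 0% of all tested genes. Clec4a2 and Clec7a, 2 of the 9, had an unadjusted p under 0.05 and were lower in KO, where 1.99% of all tested genes were lower at that limit. Of other tools, the DESeq2 Wald test called Clec4a2 (1 of the 9, against 1.33% of all genes it tested), the edgeR exact test called 0 of the 9 (1.84% of all) and limma called 0 of the 9 (0% of all). Both KO libraries lay below both WT libraries for 5 of the 9 genes (Clec4a2, Clec4a3, Clec4n, Clec7a and Clec12a), against 16.9% of all tested genes. They lay above for 0 of the 9, against 20% of all. The log2 fold change was below 0 for 8 of the 9 genes, against 45.4% of all. Its median over the 9 genes was -0.54, with -0.72 within number 1 and -0.41 within number 2, beside a median of 0.041 over all tested genes. Leaving out KO replicate 2 gave a median of -1.10, and leaving out KO replicate 1 gave -0.28. In RNA from a whole culture, fewer cells of a type and less RNA per cell cannot be told apart.

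Among the inhibitory receptors and their relatives, Clec4a2 (DCIR1) had 755 and 754 counts in the WT libraries against 332 and 473 in the KO libraries. This is 46.9 ± 0.547 CPM in WT against 20.9 ± 4.39 CPM in KO (SD, n = 2 each), so that KO held 44.6% of the WT level and the genotypes did not overlap. KO differed from WT by a log2 fold change of -1.17 (SE 0.25, 95% interval from -1.80 to -0.53), with an edgeR quasi-likelihood p of 0.00504 and an adjusted p of 0.298. It was -1.38 within number 1 and -0.98 within number 2. The adjusted p was 0.0298 in the DESeq2 Wald test and 0.092 in the edgeR exact test. Clec12a (MICL) had 6128 and 7339 counts in the WT libraries against 4274 and 6806 in the KO libraries. Its level was 419 ± 58.5 CPM in WT against 287 ± 82.3 CPM in KO (SD, n = 2 each), without overlap, and the log2 fold change was -0.54 (SE 0.30, edgeR quasi-likelihood adjusted p = 0.864). For Clec12a, leaving out KO replicate 1 gave -0.28 and leaving out KO replicate 2 gave -0.88.

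Clec4a3 had 1048 and 729 counts in the WT libraries against 801 and 695 in the KO libraries. The KO level was 70.9% of WT, with a log2 fold change of -0.50 (SE 0.28, edgeR quasi-likelihood adjusted p = 0.878), and it was -0.22 without WT replicate 1 and -0.18 after a correction for gene length. Both KO libraries were below both WT libraries after scaling, although the library labelled WT replicate 2 (45.7 CPM) was close to KO replicate 1 (43 CPM). Clec4a1 had 248 and 667 counts in the WT libraries against 218 and 529 in the KO libraries, so the genotypes overlapped and the replicate numbers did not. Its log2 fold change was -0.57 (SE 0.61, edgeR quasi-likelihood adjusted p = 0.962), and 0.30 without WT replicate 2.

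Among the activating receptors, Clec7a (Dectin-1) had 20974 and 17110 counts in the WT libraries against 14639 and 12671 in the KO libraries. Its level was 1183 ± 155 CPM in WT against 714 ± 100 CPM in KO (SD, n = 2 each), without overlap, and KO held 60.4% of the WT level. KO differed from WT by a log2 fold change of -0.73 (SE 0.23, 95% interval from -1.32 to -0.13), with an edgeR quasi-likelihood p of 0.0253 and an adjusted p of 0.595. It was -0.72 within number 1 and -0.74 within number 2. Clec4n (Dectin-2) had the lowest mean level per kilobase over the 4 libraries, with 136 and 176 counts in the WT libraries against 85 and 133 in the KO libraries. The 2 genotypes did not overlap for Clec4n after scaling (8.38 and 11 against 4.56 and 6.75 CPM), and the log2 fold change was -0.78 (SE 0.34, edgeR quasi-likelihood adjusted p = 0.814), with -0.88 and -0.71 within the numbers. Clec4d (MCL) had 9824 and 14801 counts in the WT libraries against 6785 and 16415 in the KO libraries. The Clec4d libraries overlapped between genotypes, its log2 fold change was -0.36 (SE 0.46, edgeR quasi-likelihood adjusted p = 0.964), and it was 0.12 without KO replicate 1 and -0.19 with the length correction.

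For Clec4e (Mincle) and Clec5a (MDL-1) the genotypes overlapped widely. The log2 fold change of Clec4e was 0.091, and its 95% interval ran from -5.40 to 5.58, so a difference within that range was not detectable here. It was 5.40 without WT replicate 2, 1.07 without KO replicate 1, -0.89 without WT replicate 1 and -4.96 without KO replicate 2. Within the numbers the log2 ratio of Clec4e was 0.39 and 0.087. Clec5a gave a log2 fold change of -0.02 (95% interval from -2.44 to 2.40), with ratios of 0.081 and -0.042 within the numbers. It was 1.50 without WT replicate 2, 0.69 without KO replicate 1, -0.75 without WT replicate 1 and -1.48 without KO replicate 2.

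**Figure D2:**
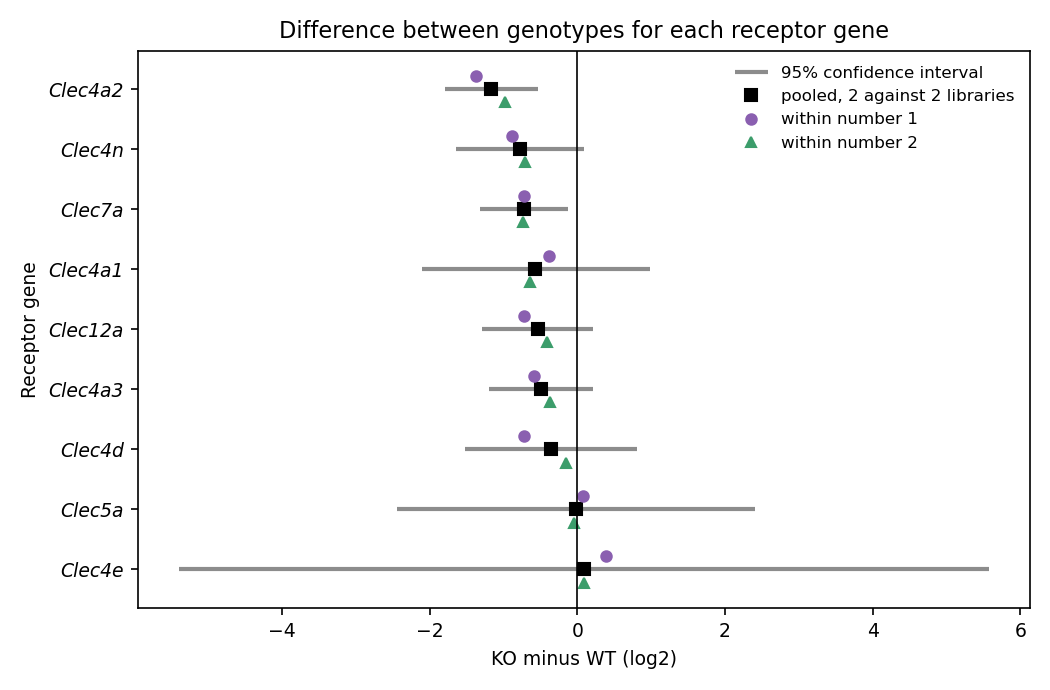
Difference between KO and WT for each receptor gene (horizontal axis, log2). Squares with grey lines are the edgeR log2 fold change and its 95% confidence interval from 2 against 2 libraries, circles are the ratio within number 1 and triangles the ratio within number 2. The intervals of Clec4a2 and Clec7a lie below 0 before adjustment for multiple tests, and the ratios within both numbers are below 0 for 7 of the 9 genes.

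Markers of other cell types were summed in each library. Of their 36 tested genes, edgeR's quasi-likelihood test called 0, while 8 were higher and 10 lower in KO at an unadjusted p under 0.05, against 4.64% and 1.99% of all tested genes. The summed level of 10 stromal marker genes was 80.4 and 93.7 CPM in WT and 354 and 331 CPM in KO, and 8 of the 10 were higher in both KO libraries, against 20% of all tested genes. The summed level of 8 mast cell and basophil genes was 75.5 and 72.3 CPM in WT and 32.2 and 40.1 CPM in KO, with Mcpt8 at 0 in every library. Of the 8, 4 were lower and 1 higher in both KO libraries, against 16.9% and 20% of all tested genes. Only 4 of these 8 were tested. The 6 B cell genes summed to 21.9 and 22.9 CPM in WT and 11.9 and 11.1 CPM in KO. All 6 were lower in both KO libraries, against 16.9% of all tested genes. Only 4 of these 6 were tested, so the share is over an unlike set. Neutrophil genes (12 listed, with Mpo and Elane at 0 in every library) summed to 89.7 and 114 CPM in WT and 81.9 and 87.3 CPM in KO. Of the 12, 4 were lower and 1 higher in both KO libraries, against 16.9% and 20% of all tested genes. Only 6 of these 12 were tested. Monocyte genes (7 listed) summed to 268 and 307 CPM in WT and 349 and 348 CPM in KO, although 3 of the 7 were lower and 2 higher in both KO libraries (16.9% and 20% of all tested genes) and their median log2 fold change was -0.61. Dendritic cell genes (10 listed) summed to between 6.72 and 29.5 CPM, and T and NK cell genes (8 listed) to between 0.912 and 2.09 CPM, in the 4 libraries. The part of these cells in the receptor values was not tested.

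The receptor genes were next compared between the replicate numbers, which differed more than the genotypes for several of them. What distinguishes number 1 from number 2 is not stated in the labels, and with 1 library of each genotype per number these values are a description with no test. Both libraries numbered 2 lay above both numbered 1 for 4 of the 9 genes (Clec4a1, Clec4d, Clec4e and Clec5a), against 25.2% of all tested genes. They lay below for 0 of the 9, against 23.2% of all. Number 2 was over 2-fold higher in both genotypes for 3 of the 9 (Clec4a1, Clec4e and Clec5a), against 4.36% of all, and under 0.5-fold for 0 of the 9, against 2.42% of all.

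Clec4e, which encodes the glycolipid receptor Mincle, had 171 counts in WT replicate 1 and 258 in KO replicate 1, but 13514 in WT replicate 2 and 17727 in KO replicate 2. Number 2 was thus 80.2-fold higher in WT and 64.9-fold higher in KO. The other member of the convergent pair, Clec4d, was 1.53-fold higher in WT and 2.29-fold higher in KO. Clec5a had 488 and 593 counts in the WT and KO libraries numbered 1, and 2341 and 2809 in those numbered 2, which is a 4.88-fold and a 4.48-fold difference. For Clec4a1 the difference was 2.73-fold in WT and 2.29-fold in KO. The other 5 genes lay between 0.708-fold (Clec4a3 in WT) and 1.51-fold (Clec12a in KO), and Clec7a was lower in number 2 in both genotypes (0.83-fold and 0.819-fold).

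The shares of the genes in the summed receptor counts, which depend on gene length as well as on level, also differed between the numbers. Clec4e took 0.43% of the summed counts of the 9 genes in WT replicate 1 (95% Wilson interval 0.37% to 0.499%) and 0.922% in KO replicate 1 (0.816% to 1.04%). In number 2 it took 23.5% in WT (23.2% to 23.9%) and 30.4% in KO (30.1% to 30.8%). The share of Clec7a was 52.7% (52.2% to 53.2%) and 52.3% (51.7% to 52.9%) in the WT and KO libraries numbered 1, and 29.8% (29.4% to 30.2%) and 21.7% (21.4% to 22.1%) in those numbered 2. The share of Clec4d stayed between 24.2% and 28.2% in the 4 libraries. The summed level of the 9 genes was 2450 and 3602 CPM in WT and 1501 and 2958 CPM in KO, and without Clec4e it was 2440 and 2754 CPM in WT and 1487 and 2058 CPM in KO. Without Clec4e both KO libraries were therefore below both WT libraries, and with it the genotypes overlapped. Intervals cover counting error only, not the variation between libraries. They treat each count as independent, although no molecular identifiers are described for these libraries. Macrophage marker genes summed to 27748 and 21896 CPM in the WT and KO libraries numbered 1 and to 25771 and 25480 CPM in those numbered 2. Dendritic cell genes summed to 6.72 and 6.81 CPM in number 1 and to 29.5 and 14.6 CPM in number 2. Of the 10 listed, 3 lay above in both libraries numbered 2 and 0 below, against 25.2% and 23.2% of all tested genes. Only 5 of the 10 were tested. Among them, the chemokine gene Ccl22 was higher in number 2 by 3.485 in WT and 3.31 in KO (log2). Cd209a had 13 and 13 counts in number 1 and 3 and 19 in number 2. Ccl22 and Cd209a were named after their values were seen. The part of dendritic cells in the receptor values was not tested.

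**Figure D3:**
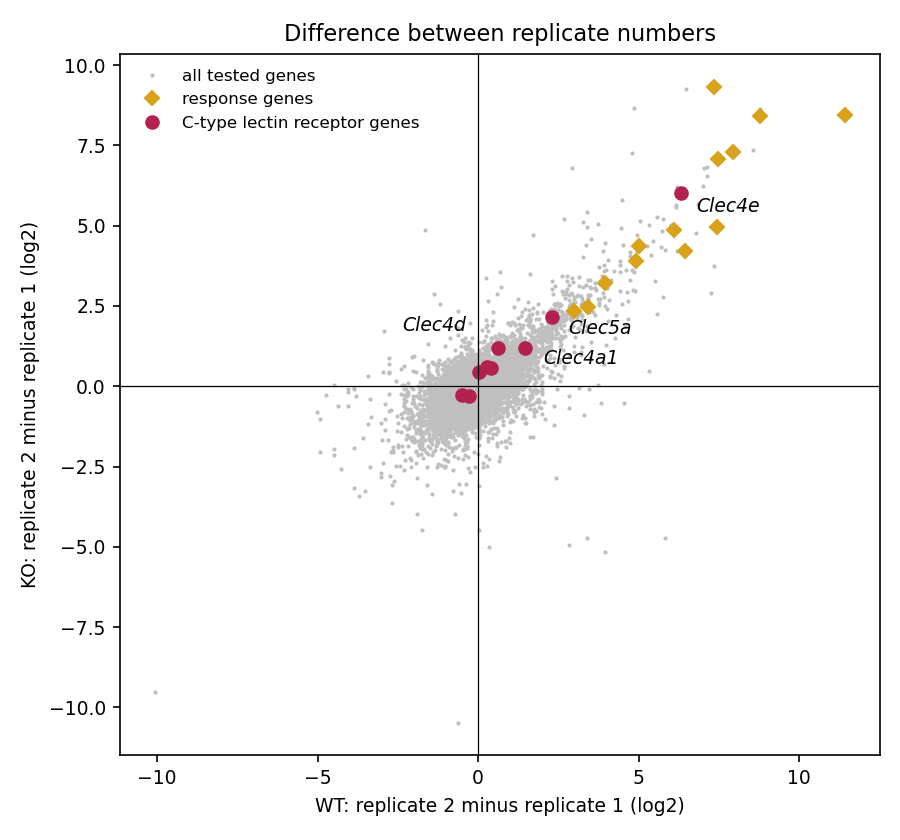
Difference between replicate 2 and replicate 1 (log2, with 0.5 counts added) in WT (horizontal axis) and in KO (vertical axis). Grey points are the 12418 tested genes, diamonds the 13 tested response genes (5 of them with fewer than 10 counts in both libraries numbered 1) and red circles the 9 receptor genes. Clec4e lies among the response genes at 6.33 in WT and 6.02 in KO, Clec5a and Clec4a1 lie above 1 on both axes, Clec4d lies at 0.62 in WT and 1.20 in KO, and the other 5 receptor genes lie between -0.50 and 0.59.

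The adaptors and kinases that serve these receptors were compared in the same fit. Fcer1g, the FcR gamma chain, had 11920 and 12445 counts in the WT libraries against 10349 and 12606 in the KO libraries. After scaling both KO libraries were below both WT libraries (555 and 640 against 734 and 780 CPM), with a log2 fold change of -0.34 (SE 0.22, edgeR quasi-likelihood adjusted p = 0.904) that turned to 0.086 after a correction for gene length. Tyrobp, which encodes DAP12, had 23706 and 14678 counts in the WT libraries against 14254 and 18603 in the KO libraries, which overlapped. Its log2 fold change of -0.48 (SE 0.30, edgeR quasi-likelihood adjusted p = 0.904) turned to 0.067 with the length correction. The KO to WT ratio of Tyrobp on the log2 scale was -0.93 in number 1 but 0.037 in number 2, and leaving out WT replicate 1 gave -0.11 and leaving out WT replicate 2 gave -0.81. Hcst, which encodes DAP10, had 597 and 416 counts in the WT libraries against 356 and 350 in the KO libraries, and did not overlap. Its log2 fold change was -0.77 (SE 0.26), with an edgeR quasi-likelihood p of 0.0299 and an adjusted p of 0.64, and it was -0.24 with the length correction.

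Syk, the kinase downstream of all of the activating receptors, had 3988 and 13750 counts in the WT libraries against 5655 and 15785 in the KO libraries. Its log2 fold change was -0.0044 (SE 0.72, edgeR quasi-likelihood adjusted p = 0.999). For Syk this value was -0.88 without KO replicate 2 and 1.13 without WT replicate 2, and number 2 was 3.51-fold higher in WT and 2.64-fold higher in KO. Card9, the relay from SYK to NF-kB, was at nearly the same level in every library (35.9 and 36.2 CPM in WT, 34.8 and 35.4 CPM in KO). The log2 fold change of Card9 was -0.04 (SE 0.21, 95% confidence interval -0.57 to 0.49), and its sign turned to 0.033 with the length correction.

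The wider pathway was followed in 8 lists of 118 genes, of which 92 were tested. Between KO and WT, 0 of the 92 were called by edgeR's quasi-likelihood test, and 4 were lower and 1 was higher at an unadjusted p under 0.05, where 1.99% of all tested genes were lower and 4.64% higher. The 4 lower were Hcst, Clec2d, Clec4b1 and Irf4, and the 1 higher was Mrc2. Irf4 and Mrc2 were named after their values were seen. The DESeq2 Wald test called 1 of the listed genes (1.33% of all genes it tested), the edgeR exact test called 2 (1.84% of all) and limma called 0 (0% of all). Both KO libraries were below both WT libraries for 12 of the 92 and above for 4, against 16.9% and 20% of all tested genes.

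Of the 14 adaptors and kinases, 6 were over 2-fold higher in number 2 in both genotypes, against 4.36% of all tested genes. Against the same 4.36%, 1 of the 10 genes of the CARD9 module passed 2-fold in both genotypes, namely Malt1, the protease of the complex, with 1127 and 1669 counts in number 1 and 10459 and 11677 counts in number 2. Bcl10, its partner, was 1.76-fold higher in WT and 2.08-fold higher in KO. Of the 11 tested transcription factors downstream, 5 were over 2-fold higher in both genotypes (4.36% of all), among them Nfkb2, an NF-kB subunit (12.7-fold in WT and 8.04-fold in KO). Rela was 2.3-fold and 1.85-fold higher, and Irf5 1.18-fold and 1.11-fold.

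The 10 inhibitors held 3 genes over 2-fold higher and 1 under 0.5-fold in both genotypes, against 4.36% and 2.42% of all tested genes. Ptpn6, which encodes the phosphatase SHP-1, was 2.02-fold higher in number 2 in WT and 1.64-fold in KO. Ptpre was 1.81-fold and 1.34-fold higher, and Ptprc, the CD45 gene, 1.74-fold and 1.36-fold. Of the 5 tested genes of endogenous ligands, 0 lay above and 0 below in both libraries numbered 2, against 25.2% and 23.2% of all tested genes. Anxa1, an annexin exposed on dying cells, had 58025 and 42072 counts in the WT libraries against 43289 and 46683 in the KO libraries, with a log2 fold change of -0.41 (SE 0.22, edgeR quasi-likelihood adjusted p = 0.868). Both KO libraries were below both WT libraries for 4 of the 5 ligand genes, against 16.9% of all tested genes.

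The response genes, cytokines and mediators that the pathway and other NF-kB activating stimuli induce, were mostly higher in number 2. Of the 16 listed, 13 were tested, but 5 of these had fewer than 10 counts in both libraries numbered 1 and passed the filter only through number 2, so that they had to differ. The other 8 had at least 17 counts in each library numbered 1, and in number 2 they were 8.03-fold to 440-fold higher in WT and 5.03-fold to 345-fold higher in KO. The 3 not tested had few counts, with 4, 4, 6 and 5 for Il10, 0, 32, 0 and 5 for Csf2 and 0, 4, 2 and 4 for Il23a in WT1, WT2, KO1 and KO2. These 3 were named after their values were seen. Tnf had 122 and 98 counts in the WT and KO libraries numbered 1, and 21261 and 14019 in those numbered 2. Ccl3 had 490 and 389 counts in number 1 and 7385 and 3801 in number 2, and Ccl4 had 322 and 194 counts in number 1 and 3413 and 1148 in number 2. Between genotypes, the log2 fold change of Ccl4 was -1.77 (SE 1.26, edgeR quasi-likelihood adjusted p = 0.927).

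**Figure D4:**
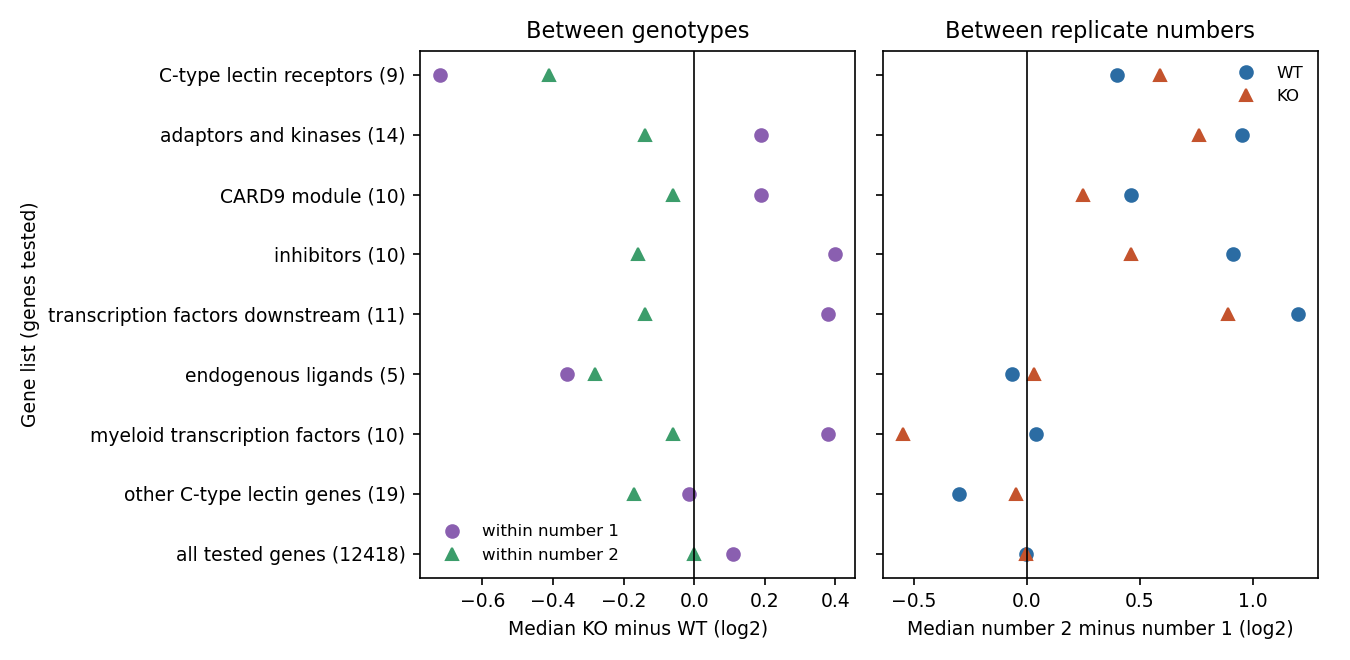
Medians of each gene list (genes tested in parentheses) between genotypes within each replicate number (left, KO minus WT, log2) and between replicate numbers within each genotype (right, number 2 minus number 1, log2). The medians of the receptor genes lie at -0.72 and -0.41 between genotypes. The response genes are not plotted, since 5 of the 13 tested passed the filter only through number 2.

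Of 40 other C-type lectin genes, 19 were tested and 0 were called by edgeR's quasi-likelihood test. Clec2d, a ligand of an inhibitory receptor of NK cells, had 4988 and 4673 counts in the WT libraries against 1924 and 3658 in the KO libraries, with a log2 fold change of -1.06 (SE 0.35, edgeR quasi-likelihood adjusted p = 0.607). Cd302 had 1931 and 2724 counts in the WT libraries against 1253 and 2894 in the KO libraries, which overlapped. Cd93 had 5910 and 4082 counts in the WT libraries against 10265 and 5877 in the KO libraries, with a log2 fold change of 0.45 (SE 0.38, edgeR quasi-likelihood adjusted p = 0.943). Both KO libraries were below both WT libraries for 4 of the 19, against 16.9% of all tested genes.

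Genes that neighbour the receptors within 100 kb did not share one pattern. Next to Clec7a, Olr1, the gene of the oxidised LDL receptor LOX-1, lies 12.5 kb away and had 14 and 16 counts in the WT and KO libraries numbered 1 and 1971 and 1962 in those numbered 2. Clec1a, 9.59 kb from Clec7a on the same strand, went the other way with 34 and 54 counts in number 1 and 5 and 7 in number 2. Cd69, 67.3 kb from Clec12a, had 28 and 40 counts in number 1 and 254 and 204 in number 2. Clec7a itself, between 643 and 1292 CPM, did not follow Olr1 or Clec1a. Near the Clec4a genes, Clec4b1 had 81 and 24 counts in the WT libraries against 18 and 19 in the KO libraries, with a log2 fold change of -1.74 (edgeR quasi-likelihood adjusted p = 0.704). C3ar1, the receptor for complement C3a, had 13673 and 10346 counts in the WT libraries against 17362 and 11355 in the KO libraries, and its log2 fold change was 0.016. The log2 fold changes of Necap1 (-0.087), Foxj2 (0.46), Ssbp1 (-0.40), 1700101I11Rik (-0.052), Clec1b (-0.041) and Gabarapl1 (0.024) all had edgeR quasi-likelihood adjusted p-values of 0.885 or more.

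Likeness of patterns was measured as the distance between log2 CPM profiles over the 4 libraries, each centred on its own mean. Among the receptors the closest pairs were Clec4n with Clec12a (0.24) and Clec4a3 with Clec7a (0.30), and the farthest was Clec4a3 with Clec4e (6.61). The convergent neighbours Clec4d and Clec4e were 5.33 apart. For Clec4e, the receptor gene with the largest SD, the 5 nearest of the other tested genes were Gpr84 (0.45), Gm16181 (0.59), Lad1 (0.76), Bpifc (0.80) and Olr1 (0.89). Gm16181 and Bpifc were at 0 in both libraries numbered 1 and Gpr84 and Lad1 were below 1 CPM there, so these 4 passed the filter only through number 2 and their distances depend on the count added before the logarithm. Gpr84 had 0.185 and 0.375 CPM in the WT and KO libraries numbered 1 and 24.8 and 20.6 CPM in those numbered 2. Olr1 had 0.862 and 0.858 CPM in number 1 and 124 and 99.6 CPM in number 2, whereas Clec4e had 10.5 and 13.8 CPM in number 1 and 848 and 900 CPM in number 2. Olr1 is thus both a neighbour of Clec7a in the genome and close to Clec4e in its pattern over these 4 libraries.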

How the data were processed

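RNA sequencing was done on total RNA of cultured mouse macrophages with an Illumina NovaSeq instrument in 4 libraries, 2 each of WT and KO, grouped by title. The authors filtered reads with Seqtk, aligned them with HISAT2 2.0.4 and counted fragments per gene with StringTie 1.3.3b. They deposited whole-number counts, not normalised, for 34745 genes, with an FPKM beside each count. The deposited FPKM were scaled by the library total alone, with a gene length that differed between libraries by at most 0.00398%, so they carry no TMM factor. The submitters' processing notes name mm39, but 27686 of the 34267 gene identifiers shared with GENCODE M21 matched it in start and end on GRCm38, as did all 9 receptor genes, and GRCm38 positions are given. Strand use in counting is not given in the sources used here.

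Counts were tested in R 4.3.3 with edgeR 4.0.16 (filterByExpr with minimum count 10 and minimum total count 15, TMM factors 0.942 to 1.11, glmQLFit and glmQLFTest, genotype as the only term, two-sided, Benjamini-Hochberg over 12418 genes). Calls required an adjusted p under 0.05 with an absolute log2 fold change above 1. Means are given with SD over 2 libraries. For ratios within a replicate number, 0.5 was added to each count. Levels per kilobase used the merged exons of GENCODE M21. A count of 0 allows up to 0.152 to 0.179 CPM, counting error only. No library was a copy of another, since every pair differed beyond sampling noise (chi-square divided by its degrees of freedom, 23.1 to 126). Code was tested on simulated counts.

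The receptor genes, the 8 lists of pathway genes and the 8 lists of cell type markers were chosen with earlier results of these data known. Named by rule were the 9 receptor genes, G3bp1, Fcer1g, Tyrobp, Hcst, Syk and Card9, the 3 genes of each list with the highest mean FPKM, tested neighbours within 100 kb, and the 5 genes most like the receptor gene with the largest SD. Not every gene that this rule names is reported here. Alternatives were the size factors of DESeq2 1.42.0, its Wald test, the edgeR exact test, limma 3.58.1 (trend) on log2(FPKM + 1) of genes reaching 0.1 FPKM in 2 or more libraries, a replicate term, a gene length correction (loess, span 0.5), both together, a minimum mean CPM of 1 or no filter in place of filterByExpr, each library left out in turn, and calls by adjusted p alone.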

Additional observations from a re-analysis of the deposited data

How the results depend on the processing

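For the count of receptor genes called (0), the alternatives gave 0 except the DESeq2 Wald test (1), the fit with the replicate block (1) and the block with the gene length correction (1), each time Clec4a2. Over all tested genes the count of 0 became 170 with the DESeq2 Wald test, 229 with the edgeR exact test, 664 with the block and 381 with the block and length correction, and it was 0 to 1 when libraries were left out. Of the 92 pathway genes, called genes went from 0 to 1 with the DESeq2 Wald test, 2 with the edgeR exact test, 8 with the block and 2 with the block and length correction. The median of the receptor genes (-0.54) was -0.30 with the block and length correction and lay between -1.10 and -0.28 when each library was left out. The causes were not tested.

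The numbers 1 and 2 are shared by both genotypes, but no label ties them to a shared batch, and there are only 2 pairs. Same-numbered libraries deviated together (correlation 0.692 of the deviations from the genotype means). With the replicate block the adjusted p was 4.96e-05 for Clec4a2, 0.0289 for Clec7a, whose log2 fold change of -0.73 stayed under the minimum fold, and 0.0504 for Clec4n, and no receptor gene besides Clec4a2 was called. The biological coefficient of variation was 0.343 without the block and 0.169 with it.

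Signs turned under some alternatives. With the length correction they turned for Clec4e (-0.011), Fcer1g (0.086), Tyrobp (0.067) and Card9 (0.033), and with the block and length correction for Fcer1g (0.10), Tyrobp (0.077) and Card9 (0.032). With the block they turned for Clec5a (0.018) and Syk (0.10), and with limma for Clec5a (0.15), Syk (0.24) and Card9 (0.11). The ranges over the left-out libraries crossed 0 for Clec4a1 (-1.29 to 0.30), Clec4d (-1.08 to 0.12), Clec4e (-4.96 to 5.40), Clec5a (-1.48 to 1.50) and Syk (-0.88 to 1.13). With 1 library left alone in a genotype, it is assumed to vary like the other genotype. Clec4a2, Clec4a3, Clec4n, Clec7a, Clec12a and Hcst kept a log2 fold change below 0 in all 13 alternatives.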

Other observations

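Transcription factors of myeloid cells also separated by replicate number; Cebpa and Irf4 were named after their values were seen. Of the 10 listed, 4 were higher in both libraries numbered 2 and 4 were lower in both, against 25.2% and 23.2% of all tested genes. Among those higher were Cebpd, with 317 and 265 counts in the WT and KO libraries numbered 1 and 1646 and 1607 in those numbered 2, Cebpb, with 3509 and 2589 against 7762 and 6908 counts, and Spi1, the PU.1 gene, with 4764 and 4506 against 9726 and 10839 counts. Among those lower was Cebpa, with 2501 and 3694 counts in number 1 and 862 and 1199 in number 2. For Irf4 it was the genotypes that did not overlap, with 178 and 183 counts in the WT libraries against 80 and 54 in the KO libraries. Its log2 fold change was -1.67, with an edgeR quasi-likelihood adjusted p of 0.289, and it was not called.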
